A study of Homo sapiens with 3 samples.

Results

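The genes described here are 9 members of the trefoil factor and mucin families: TFF1, TFF2, TFF3, MUC1, MUC5AC, MUC5B, MUC13, MUC16 and MUC20. Every probe set whose only gene symbol in the platform annotation was one of these names was taken, which gave 19 of 54613 probe sets (control probe sets left out) and 9 of 19775 named genes. TFF1, TFF2, TFF3 and MUC16 were read by 1 probe set each, and the other 5 genes by 2 to 4. The family was chosen by name, with the estradiol differences of TFF1, TFF2 and MUC5B on these same arrays already known, so its values are a description and carry no test.

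The cells were SKBR3, a widely used human breast carcinoma line that carries an amplified ERBB2 gene and is known for lacking oestrogen receptor α. For 4 h they were held in 10% charcoal-stripped serum, from which most steroid hormones have been removed. They then received 0.1% ethanol (vehicle), 1 µM estradiol or 1 µM ERα17p for 3 h. The ethanol content is recorded for the vehicle cells only. A difference in solvent between vehicle and either treatment thus cannot be told apart from the treatment. ERα17p is a synthetic peptide copied from a stretch of oestrogen receptor α. Each of the 3 treatments had 1 Affymetrix array, so no difference has an error from replicates or a p-value, and the treatment cannot be told apart from the culture or the array. Values are log2 units above or below a baseline that had been subtracted from each probe set. They can be set against each other across arrays within a probe set, and they give no expression level, so whether a member was expressed above background is unknown. A probe set or gene is called "higher" or "lower" where 2 arrays differed by 1.5-fold or more, that is by 0.585 log2 units.

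Trefoil factors are small secreted peptides with a cloverleaf-shaped domain held together by disulphide bonds. They are stored and released together with mucins and support the repair of mucosal surfaces. Mucins are very large glycoproteins whose serine- and threonine-rich repeats carry dense O-linked sugars. MUC5AC and MUC5B are secreted and polymerise into gels, whereas MUC1, MUC13, MUC16 and MUC20 are anchored in the cell membrane. TFF1 is among the best known oestrogen-induced genes of receptor-positive breast cancer cells, and MUC1 is abundant in breast carcinomas.

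Values of all probe sets spread most on the vehicle array, where their standard deviation was 0.27 log2 units, against 0.12 with estradiol and 0.13 with ERα17p. The 3′ minus 5′ difference of the actin control probe sets, a comparison used to judge RNA quality, was 0.30 with vehicle, 0.02 with estradiol and -0.04 with ERα17p. The same difference for GAPDH was 0.05, 0.01 and -0.03. A baseline had been subtracted from each probe set. Only changes of these differences between arrays can thus be read, and no RNA quality ratio of an array. These values move with every difference from the vehicle array below, and their part in those differences was not tested. Of 8 luminal epithelial marker genes, 0 differed by 1.5-fold in any comparison. The same held for 5 measured basal or mesenchymal markers and 3 leukocyte markers. Among all genes 0.809% were higher and 2.93% lower with estradiol than with vehicle, and 0.582% and 2.14% with ERα17p. For estradiol against ERα17p the shares were 0.147% and 0.207%. Lists this short can thus hold no call without standing out. Leukocyte marker differences from vehicle ran from -0.10 to 0.42 with estradiol and from -0.22 to 0.45 with ERα17p. Because levels cannot be read, the identity of the cells could not be checked against these markers.

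Among the trefoil factors, TFF1 and TFF2 stood highest on the estradiol array and TFF3 barely differed. TFF2 (214476_at) had -0.89 with vehicle, 0.07 with estradiol and -0.54 with ERα17p. Its estradiol value was thus higher than both others, by 0.95 over vehicle (1.94-fold) and by 0.61 over ERα17p (1.52-fold). The vehicle and ERα17p arrays differed by 0.35, with ERα17p above. Among all 54613 probe sets, 34 had an estradiol minus vehicle difference at least as large as that of TFF2, itself included.

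TFF1 (205009_at), the oestrogen marker known as pS2, had -0.40 with vehicle, 0.15 with estradiol and -0.45 with ERα17p. Vehicle and ERα17p were close together, 0.05 apart, and estradiol stood above both. The estradiol value exceeded ERα17p by 0.59 (1.51-fold), just past the 1.5-fold size, and exceeded vehicle by 0.54 (1.46-fold), just short of it. Those distances to the threshold are small beside the spread of all probe sets in either comparison, 0.19 and 0.32 log2 units (SD). That spread is over different probe sets and is not the error of TFF1, which is unknown with 1 array per treatment. The 2 differences of TFF1 are therefore not read as set apart by lying on opposite sides of the threshold.

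TFF3 (204623_at), the trefoil factor of goblet cells and of many luminal breast tumours, lay at -0.06, 0.00 and -0.15 on the vehicle, estradiol and ERα17p arrays. Its differences were 0.06 for estradiol against vehicle, -0.09 for ERα17p against vehicle and 0.15 for estradiol against ERα17p. None reached 1.5-fold, although the order of the 3 arrays was the same as for TFF1.

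**Figure D1:**
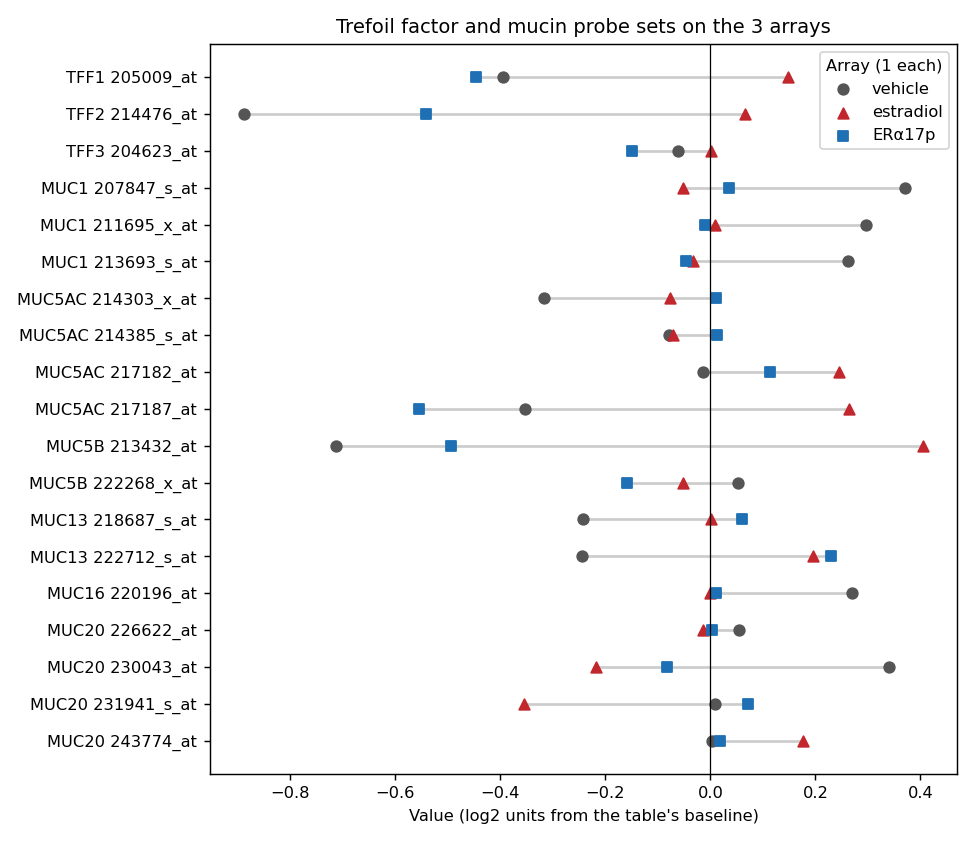
Values of the 19 probe sets on the arrays labelled vehicle (grey circles), estradiol (red triangles) and ERα17p (blue squares), 1 array each, in log2 units from the table's baseline, with a grey line over the range. The widest lines belong to TFF1, TFF2, MUC5AC 217187_at and MUC5B 213432_at, in which estradiol lay above 0 and both other arrays below it.

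Of the gel-forming mucins, 1 probe set each of MUC5B and MUC5AC showed the widest gap between estradiol and both other arrays, while their other probe sets did not. MUC5B 213432_at had -0.71 with vehicle, 0.41 with estradiol and -0.49 with ERα17p. Estradiol was higher than vehicle by 1.12 (2.17-fold), the largest difference among the members, and higher than ERα17p by 0.90 (1.87-fold). Counting itself, 18 of 54613 probe sets differed upward as much for estradiol against vehicle, and 13 for estradiol against ERα17p. The second MUC5B probe set, 222268_x_at, lay at 0.05, -0.05 and -0.16 on the vehicle, estradiol and ERα17p arrays. Its estradiol minus vehicle difference was -0.10, opposite in sign, and its estradiol minus ERα17p difference was 0.11.

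Of 4 MUC5AC probe sets, 217187_at had -0.35 with vehicle, 0.26 with estradiol and -0.55 with ERα17p. Estradiol was higher than vehicle by 0.62 (1.53-fold) and higher than ERα17p by 0.82 (1.76-fold), and ERα17p was below vehicle by 0.20. The plot of values by array shows the same arrangement for this probe set as for TFF1. MUC5AC 217182_at lay at -0.01, 0.24 and 0.11 on the vehicle, estradiol and ERα17p arrays, with estradiol above ERα17p by 0.13. MUC5AC 214303_x_at (-0.32, -0.08 and 0.01) and 214385_s_at (-0.08, -0.07 and 0.01) had their highest value with ERα17p. As a gene, taken as the median over its probe sets, MUC5AC differed by 0.28 for estradiol against vehicle and by 0.07 for estradiol against ERα17p, and MUC5B by 0.51 and 0.50.

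Of the 4 membrane mucins among the members, MUC1, MUC13 and MUC16 had estradiol and ERα17p values close together and the vehicle array apart from both. MUC1, which signals through its cytoplasmic tail, was read by 3 probe sets with like values. They had 0.37, 0.30 and 0.26 with vehicle, -0.05, 0.01 and -0.03 with estradiol, and 0.04, -0.01 and -0.05 with ERα17p (207847_s_at, 211695_x_at and 213693_s_at in that order). All 3 were below vehicle with either treatment, by -0.42 to -0.29 with estradiol and by -0.33 to -0.31 with ERα17p, and none reached 1.5-fold. MUC16 (220196_at), the very large mucin that carries an ovarian tumour antigen, lay at 0.27, -0.00 and 0.01, with differences of -0.27 and -0.26 from vehicle.

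MUC13, a mucin of gut and airway epithelia with EGF-like domains, went the other way. Its probe sets 218687_s_at and 222712_s_at had -0.24 and -0.25 with vehicle, 0.00 and 0.20 with estradiol, and 0.06 and 0.23 with ERα17p. Both were above vehicle with either treatment, by 0.24 and 0.44 with estradiol and by 0.30 and 0.47 with ERα17p. The last value, 1.39-fold, was the widest upward difference of any member for ERα17p against vehicle, and it did not reach 1.5-fold.

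The sequences before the start sites are shown for MUC1 and MUC13, the 2 members whose several probe sets had close values, which ran in opposite directions. Of the members, only MUC1, MUC13 and MUC16 had an entry in the promoter collection. TFF1, TFF2, TFF3, MUC5AC, MUC5B and MUC20 could not be searched, so the motifs below say nothing about them. They are the 250 bases upstream, from RefSeq on GRCh38.p14, minus strand, with matches to the searched motifs in capitals. Both strands were searched in the 300-base window from 250 bases before to 50 after the start for the oestrogen half-site GGTCA, the AP-1 motif TGANTCA, the GC box GGGCGG and the TATA motif TATAAA.
MUC1, chr1:155192916-155193165: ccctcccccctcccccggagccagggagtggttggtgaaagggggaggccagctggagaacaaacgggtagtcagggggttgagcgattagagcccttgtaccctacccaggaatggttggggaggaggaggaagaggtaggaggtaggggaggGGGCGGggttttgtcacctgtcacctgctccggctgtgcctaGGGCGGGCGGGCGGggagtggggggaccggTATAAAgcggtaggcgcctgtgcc
MUC13, chr3:124934752-124935001: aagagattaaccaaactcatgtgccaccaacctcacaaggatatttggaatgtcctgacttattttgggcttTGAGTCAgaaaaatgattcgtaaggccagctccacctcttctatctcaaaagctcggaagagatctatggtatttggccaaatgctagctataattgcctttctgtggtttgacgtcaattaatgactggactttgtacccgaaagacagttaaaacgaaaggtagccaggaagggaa
The MUC1 window held 4 GC boxes, 3 of them overlapping each other, and 1 TATA motif, at 65.7% G and C. The MUC13 window held 1 AP-1 motif, at 41.0% G and C. Neither of these windows held GGTCA. A second MUC1 window, which overlaps the first, held the same number of each motif. MUC16, below vehicle like MUC1, has 2 windows in the promoter collection, 1 with a GC box and 1 with an AP-1 motif and GGTCA on the other strand. Among 35116 promoter windows of the same length, 37.4% held GGTCA, 7.71% the AP-1 motif, 45.0% the GC box and 11.5% the TATA motif, and a match describes letters and not a bound site.

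MUC20, a membrane mucin known to bind the MET receptor, gave no common picture over its 4 probe sets. MUC20 230043_at lay at 0.34, -0.22 and -0.08 on the vehicle, estradiol and ERα17p arrays, 0.56 below vehicle with estradiol, just short of 1.5-fold. MUC20 231941_s_at lay at 0.01, -0.35 and 0.07, so that the estradiol array alone was low, by -0.43 against ERα17p. MUC20 243774_at (0.00, 0.18 and 0.02) was highest with estradiol, and 226622_at (0.05, -0.01 and 0.00) hardly differed. The gene medians were 0.03, -0.12 and 0.01.

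Counted over probe sets, 3 of 19 were higher with estradiol than with vehicle (MUC5B 213432_at, TFF2 and MUC5AC 217187_at), against 1.54% of all probe sets, and 0 were lower, against 3.4%. For ERα17p against vehicle, 0 of 19 were higher and 0 lower, where 0.912% and 2.69% of all probe sets were. For estradiol against ERα17p, 4 of 19 were higher (MUC5B 213432_at, MUC5AC 217187_at, TFF2 and TFF1), against 0.401%, and 0 were lower, against 0.253%. Because the members were picked with such differences in view, the counts stand beside these shares only as a description. Over genes, TFF2 was higher with estradiol than with vehicle (1 of 9; 0.809% of all genes, with 0 lower against 2.93%) and TFF1 and TFF2 were higher than with ERα17p (2 of 9; 0.147%, with 0 lower against 0.207%), while 0 of 9 passed for ERα17p against vehicle (0.582% higher and 2.14% lower among all genes).

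Most members lay within the bulk of the table. The median over the 19 probe sets was 0.06 for estradiol against vehicle (0.03 over all probe sets), -0.05 for ERα17p against vehicle (0.03) and 0.01 for estradiol against ERα17p (-0.01). The estradiol array was the highest of the 3 in 7 of 19 probe sets and in 35.0% of all, and the ERα17p array was the lowest in 6 of 19 and in 25.5% of all. The 2 comparisons with vehicle share that array, and the 2 that involve estradiol share the estradiol array, so that they are not separate evidence.

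**Figure D2:**
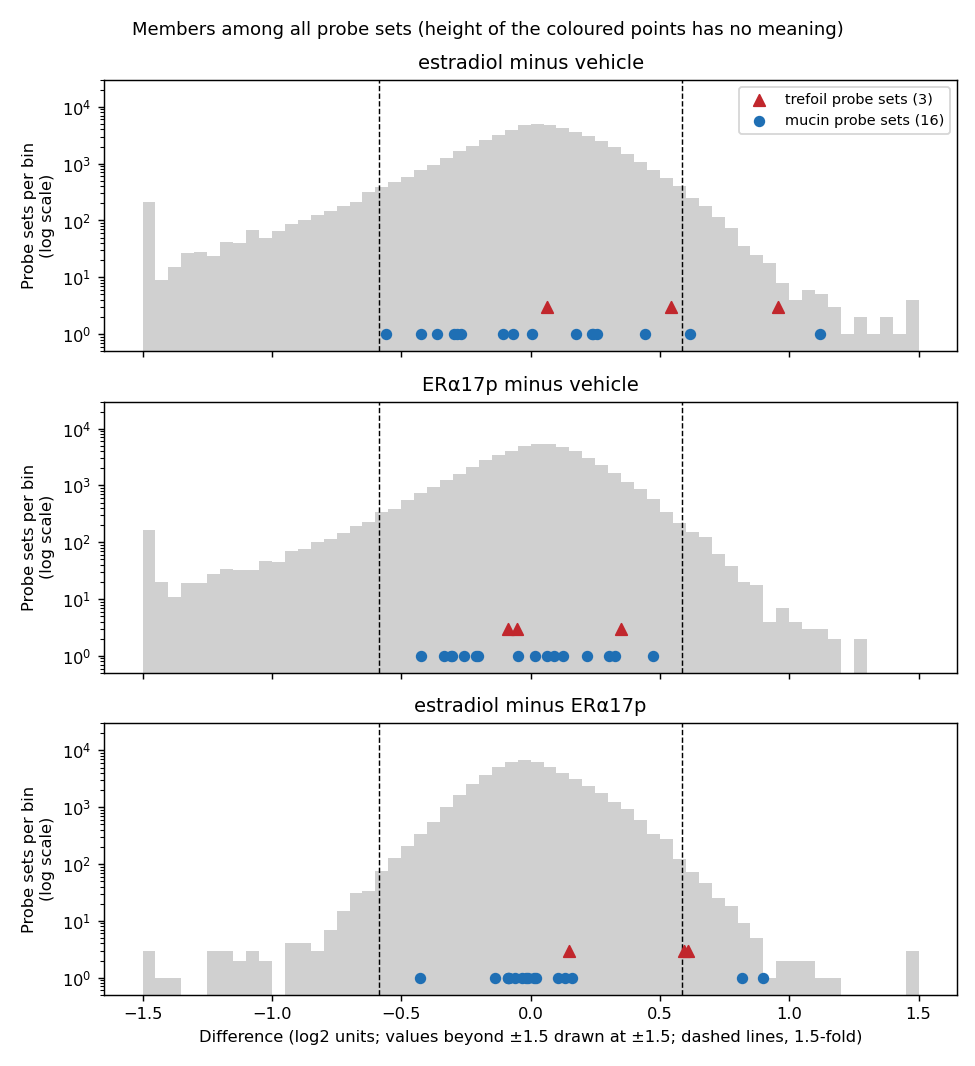
Grey bars give the number of probe sets per bin of 0.05 log2 units (log scale) over 54613 probe sets for each comparison, and coloured marks give the 3 trefoil and 16 mucin probe sets. Marks past the right dashed line number 3 for estradiol minus vehicle, 0 for ERα17p minus vehicle and 4 for estradiol minus ERα17p, and none lie past the left one.

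Probe sets of a gene gave the only repeat measurement on each array, and here the members fell into close and wide genes. For estradiol minus vehicle the range over probe sets was 0.14 in MUC1 and 0.20 in MUC13, below the median of 0.29 over 10523 genes with at least 2 probe sets. It was 0.61 in MUC5AC, 0.73 in MUC20 and 1.22 in MUC5B, and 1.35% of those genes had a range as wide as that of MUC5B. For estradiol minus ERα17p the ranges were 0.11 in MUC1, 0.03 in MUC13, 0.58 in MUC20, 0.79 in MUC5B and 0.91 in MUC5AC, against a median of 0.23. Ranges as wide as the last were found in 0.561% of genes.

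How often a call in 1 probe set was repeated by another of its gene depended on the direction. For estradiol against ERα17p, 99 genes with at least 2 probe sets had a higher call, and in 2 of these (2.02%) another probe set was also called. In 32 of the 99 (32.3%), MUC5B among them, all probe sets lay above 0. Against vehicle, 397 genes had a higher call with estradiol, of which 30 (7.56%) had another and 188 (47.4%) had all probe sets above 0, as MUC5AC had and MUC5B had not. Lower calls were repeated more often, in 31.3% of 857 genes for estradiol against vehicle, 28.1% of 658 for ERα17p against vehicle and 10.3% of 78 for estradiol against ERα17p. The members' calls were all higher calls and came from probe sets ending in plain _at, which are designed for a single transcript. These made up 10 of the 19 members, and among all such probe sets 1.68% were higher with estradiol than with vehicle, against 1.07% of probe sets ending in _s_at (shared by several transcripts) and 1.55% of those ending in _x_at (some probes may match other sequences). For estradiol against ERα17p these shares were 0.431%, 0.266% and 0.618%. TFF1 and TFF2 have 1 probe set each, so that no second reading of either exists on these arrays.

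**Figure D3:**
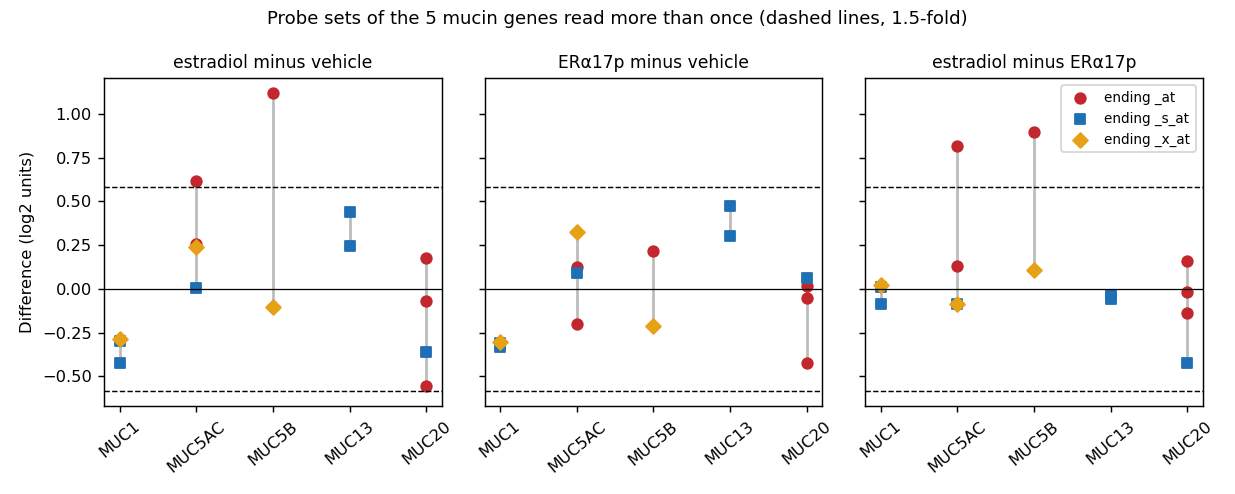
Differences of each probe set of the 5 mucin genes read more than once, in log2 units, for the 3 comparisons, with symbols by probe set ending and a grey line over the range. The MUC1 and MUC13 probe sets lie together. In both comparisons that involve estradiol, 1 probe set ending in _at of MUC5B and of MUC5AC lies past the dashed 1.5-fold line. Their other probe sets do not, and none passes it for ERα17p minus vehicle.

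The 3 trefoil genes are neighbours on chromosome 21, in the order TFF3, TFF2 and TFF1 in the gene table, and MUC2, MUC5AC and MUC5B are neighbours on chromosome 11. Genes beside the trefoil cluster had estradiol minus vehicle differences below 0. UMODL1, the second gene before TFF3, was lower with estradiol than with vehicle by -0.65, and ABCG1, a sterol transporter gene next to TFF3, differed by -0.17. With ERα17p against vehicle these 2 genes also lay below 0, at -0.49 and -0.25. Their estradiol minus ERα17p differences were -0.16 and 0.07. On the other side TMPRSS3, a membrane protease gene next to TFF1, had differences of -0.03, -0.03 and -0.01 for estradiol against vehicle, ERα17p against vehicle and estradiol against ERα17p. UBASH3A had -0.18, 0.18 and -0.36. Beside the gel-forming mucins, MUC2, the main mucin of the colon, differed by 0.32, 0.16 and 0.17, and on the far side of MUC5B the gene TOLLIP, an inhibitor of Toll-like receptor signalling, had -0.04, -0.03 and -0.01. BRSK2, a kinase gene one further on, had -0.04, 0.02 and -0.07.

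**Figure D4:**
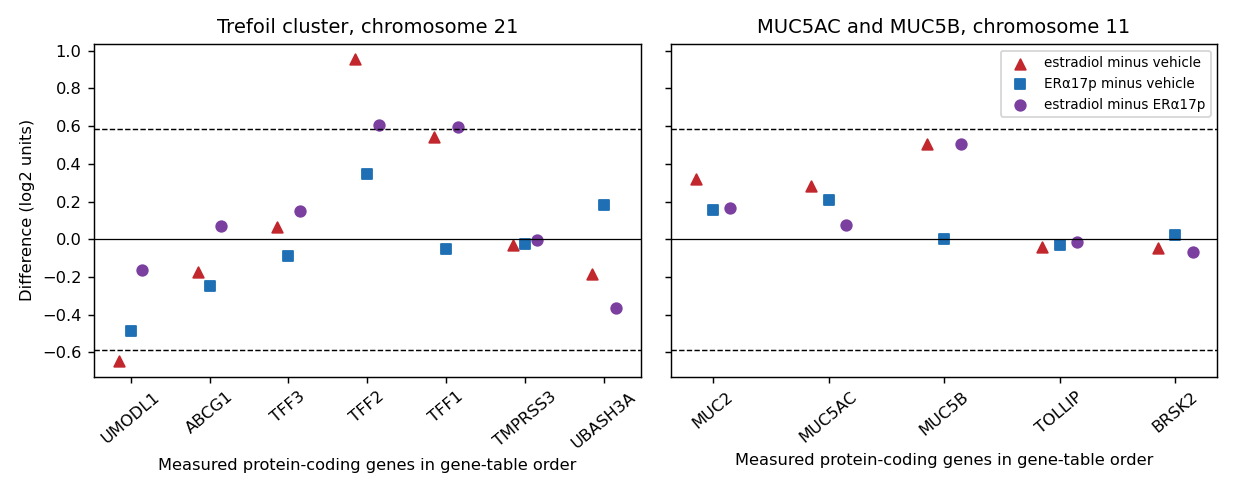
Gene differences in log2 units for the measured protein-coding genes in and beside the trefoil cluster (left) and the MUC5AC and MUC5B pair (right), in the order of the gene table and not to scale. TFF2 and TFF1 reach 0.95 and 0.54 for estradiol minus vehicle, while TMPRSS3 and TOLLIP stay near 0.

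Of 16 other measured mucin and mucin-like genes, 0 were higher and 0 lower in each comparison. Among all genes 0.809% were higher and 2.93% lower for estradiol against vehicle, 0.582% and 2.14% for ERα17p against vehicle, and 0.147% and 0.207% for estradiol against ERα17p, so that a list of this size can hold no call without standing out. Medians of the 16 genes in these comparisons were -0.01, 0.02 and 0.08, beside 0.03, 0.03 and -0.01 over all genes. MUC12, a membrane mucin, came nearest. It lay at -0.30, 0.28 and -0.11 on the vehicle, estradiol and ERα17p arrays, 0.58 above vehicle and 0.39 above ERα17p with estradiol, an order of arrays like that of TFF2. MUC15 had the opposite sign with estradiol, -0.43 against vehicle and -0.31 against ERα17p. MUC3A had 0.37 for estradiol against vehicle, 0.30 for ERα17p against vehicle and 0.08 for estradiol against ERα17p. OVGP1, the oviduct mucin-like glycoprotein gene, had -0.19, -0.34 and 0.15 in that order.

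Of 22 measured enzymes that build mucin O-glycans, 0 passed 1.5-fold in any comparison, a count that does not set the list apart at those shares of all genes. Their medians were 0.04, 0.07 and -0.06. GCNT3, which makes branched mucin-type glycans, was below vehicle by -0.54 with estradiol and by -0.47 with ERα17p. GCNT1, a core branching enzyme, was above it by 0.47 and 0.41. The sialyltransferase genes ST6GALNAC1 (-0.30 and -0.34) and ST6GALNAC2 (0.14 and 0.26) differed in sign.

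Among 26 measured genes of the mucus-secreting cell programme, the genes past 1.5-fold were transcription factor genes, lower with treatment than with vehicle. SOX9 had 1.17 with vehicle, -0.12 with estradiol and -0.08 with ERα17p, and was lower by -1.29 and -1.25. KLF4, a goblet cell factor that is also an early response gene, was lower by -0.64 and -0.72. GATA6, an endodermal factor, was lower by -1.04 and -0.91, but its 2 probe sets spanned 2.48 and 1.79 log2 units in those comparisons. They differed by -2.28 and 0.20 with estradiol and by -1.81 and -0.02 with ERα17p, so the calls rest on 1 probe set. ELF3, an epithelial factor, was lower with ERα17p (-0.67) and reached -0.56 with estradiol. In all, 3 were lower with estradiol (2.93% of all genes), 4 with ERα17p (2.14%), and 0 were higher in either or past 1.5-fold between the treatments. The list's medians were 0.03, -0.00 and 0.07. Because the list was drawn up with earlier results of these data known, its counts stand beside the shares only as a description.

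Of 24 measured binding partners, receptors and shedding enzymes of mucins and trefoil factors, 2 were lower with each treatment than with vehicle (2.93% of all genes with estradiol and 2.14% with ERα17p), and 0 differed by 1.5-fold between the treatments. Both encode adhesion molecules that bind glycoprotein ligands. SELE (E-selectin), read by 1 probe set, was lower by -5.66 with estradiol and by -5.11 with ERα17p, and lay at 5.61 on the vehicle array. ICAM1, a ligand reported for MUC1, was lower by -1.93 and -1.77, with probe sets that spanned 3.81 and 3.44 log2 units. These ran from -3.99 to -0.18 with estradiol and from -3.33 to 0.11 with ERα17p. MSLN (mesothelin), the partner of MUC16, was above vehicle by 0.41 and 0.46, and MMP14, a protease that can shed MUC1, by 0.43 and 0.26. The list's medians were 0.11, 0.06 and 0.01. This list too was drawn up with earlier results of these data known, so its counts are a description only.

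**Figure D5:**
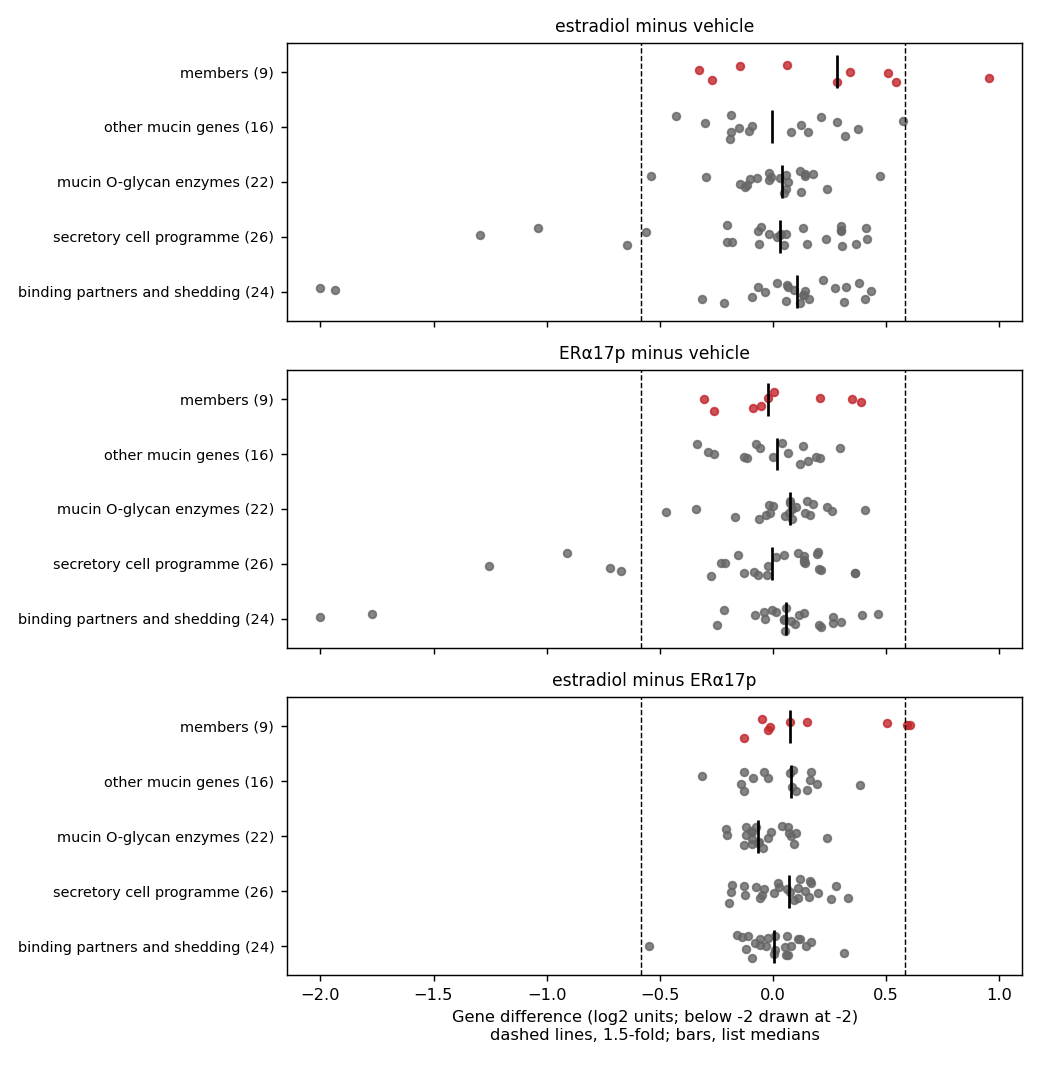
Gene differences in log2 units for the 9 members (red) and the measured genes of 4 related lists (grey), with vertical spread for legibility, a black bar at each list's median and dashed lines at 1.5-fold. Marks past the left line for the 2 comparisons with vehicle are SOX9, GATA6, KLF4, SELE and ICAM1, joined by ELF3 with ERα17p, and the marks past the right line are TFF2 and, for estradiol minus ERα17p, TFF1 and TFF2.

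The genes nearest in pattern were found by the distance between values on the 3 arrays, each gene centred on its own mean. With 3 arrays such likeness rests on few numbers, and many genes are close. Nearest to TFF1 among 19774 genes were KIAA0408, CFHR4 and SPATS1, at distances of 0.01, 0.02 and 0.03 log2 units. Of the other members, MUC5B was closest to TFF1, with 11 genes nearer, followed by TFF2 with 1937 nearer. The MUC5B values are medians of 2 unlike probe sets. On the vehicle, estradiol and ERα17p arrays 213432_at had -0.71, 0.41 and -0.49, and 222268_x_at had 0.05, -0.05 and -0.16. TFF1 and MUC5B were also both picked with their estradiol differences known. Nearest to TFF2 were LRRC32, ITPR1-DT and LOC285422 (0.05, 0.07 and 0.11). LRRC32 was higher with estradiol than with vehicle by 0.96 and than with ERα17p by 0.67. Nearest to MUC5B, among 10522 genes with at least 2 probe sets, were LOC101928343, LINC00937 and PPP1R17 (0.02, 0.03 and 0.05).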

How the data were processed

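Each treatment of SKBR3 cells had 1 Affymetrix array of total RNA, and groups came from the sample labels. RMA made the deposited values, per the submitters' processing notes, and its version was not stated. The authors' deposited values were taken as log2, which is what RMA gives, with no source naming the base. Column medians were -0.02 (vehicle), -0.00 (estradiol) and 0.00 (ERα17p), and 3979 of 54675 probe sets (7.28%) held 2 columns that mirrored each other around 0 (tolerance 1e-06, values over 0.001), so the values were treated as distances from a subtracted baseline.

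Members and lists were chosen with earlier results of these data known. Genes were medians over the 41091 probe sets with 1 gene symbol; 62 controls were left out, and 1801 probe sets with several symbols and 11721 unnamed here gave no gene. All 9 members matched the GRCh38.p14 gene list by Entrez ID, and 3 had a promoter entry. Without levels, dim probe sets could not be filtered, and the number of arrays limits the precision. Differences were computed with pandas 2.3.3 and numpy 2.4.6 and called at 1.5-fold. Simulated data checked only the step that makes calls. Their noise was set from the spread of estradiol against ERα17p (SD 0.19 log2 units). The comparisons with vehicle spread more (0.32 with estradiol and 0.29 with ERα17p), so the check does not cover their noise. Named were all members, up to 4 genes per list with the widest difference, list genes past 1.5-fold where there were at most 5, the 3 nearest patterns and 2 chromosome neighbours each side, of which LOC124902605 was not measured. The GC box and TATA motifs, and the choice of MUC1 and MUC13 promoters, came after the values were seen. Alternatives were other sizes of call, probe sets, centrings, scalings and gene values, and the baseline as reference.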

Additional observations from a re-analysis of the deposited data

How the results depend on the processing

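No paired analysis was possible because each treatment had 1 array. Alternative settings changed no sign of a member gene's difference that itself passed 1.5-fold. For ERα17p against vehicle, where none passed, TFF2 turned from 0.35 to -0.54, MUC16 from -0.26 to 0.01 and MUC20 from -0.02 to 0.01 with the table's baseline in place of the vehicle array. In that comparison MUC5AC turned from 0.21 to -0.04 with plain _at probe sets only, and MUC5B from 0.00 to -0.02, -0.13 and -0.33 with median centring, quantile normalization and the baseline. For estradiol against vehicle, the probe sets called numbered 1 at 2-fold (MUC5B 213432_at), 7 at 1.3-fold and 0 with the table's baseline in place of the vehicle array, where 3 were called as reported. Member genes called in that comparison numbered 0 at 2-fold, 3 at 1.3-fold, 2 with plain _at probe sets only, 0 against the baseline and 3 with the probe set of largest difference, where 1 was as reported. For ERα17p against vehicle, 2 probe sets and 1 gene (MUC13) were called at 1.3-fold in place of 0. For estradiol against ERα17p, 0 probe sets and 0 genes were called at 2-fold in place of 4 and 2, and 4 genes with the probe set of largest difference. Centring each array on its median kept all counts, and quantile normalization added MUC5B for estradiol against ERα17p (3 genes). Of 18 member differences from vehicle, 7 moved by more than the spread of all probe sets (1 SD) when the baseline replaced that array. Pairs of these arrays mirrored each other around 0, as in MUC5B 222268_x_at (0.05 with vehicle and -0.05 with estradiol). The gene SCGB2A2 did so for vehicle and ERα17p (0.01 and -0.01). Such mirrored values arise when a baseline is taken from the arrays themselves, so it is not an independent reference. Whether other arrays also formed it is unknown. With 1 array per treatment and no levels, neither replicate error nor signal over background is known.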

Other observations

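Median differences from vehicle of the 26 measured secretory programme genes were 0.03 with estradiol and -0.00 with ERα17p. Beside the transcription factor genes past 1.5-fold given above, single genes that did not reach this size went either way. Those given here were named after their values were seen. AGR2, a disulphide isomerase gene needed for mucin folding, was above vehicle by 0.37 with estradiol and by 0.36 with ERα17p. SPDEF, a transcription factor gene of secretory cells, had 0.30 and 0.19, and the luminal factor gene FOXA1 had 0.41 and 0.21. AGR3, a relative of AGR2, had -0.07 and -0.23, and EHF, an epithelial ETS factor gene, had -0.18 and -0.21. In each of these comparisons 2 of the 6 EHF probe sets lay above 0.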
